A study of Schizosaccharomyces pombe with 72 samples.

Results

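Mmi1-controlled early meiotic genes were followed across chromatin remodeler mutants of fission yeast growing mitotically. The 8 genes, taken by their systematic IDs out of 5112 protein-coding genes, were mei4 (SPBC32H8.11), ssm4 (SPAC27D7.13c), spo5 (SPBC29A10.02), rec8 (SPBC29A10.14), mcp5 (SPBC216.02, also called num1), crs1 (SPBC2G2.09c), spo4 (SPBC21C3.18) and mei2 (SPAC27D7.03c). They were chosen by name and role and not by a cut on their values, but with earlier results of these data known. Each was measured on its own strand (sense) and on the opposite strand (antisense), which gave 16 of the entries in tables that list every annotated transcript and its reverse complement.

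The study asked how nucleosome remodelers, above all the CHD family members Hrp1 and Hrp3, affect antisense transcription, by strand-specific poly(A) mRNA-seq of 24 groups with 3 libraries each, 72 in all. Experiment A set strains that lack 1 remodeler beside WT in 2 batches, both of which had WT libraries. Batch 1 held the CHD deletions hrp1Δ and hrp3Δ, the FUN30 deletions fft2Δ and fft3Δ, rrp1Δ and rrp2Δ, and also mit1Δ, swr1Δ and irc20Δ, and batch 2 held fft1Δ and snf22Δ. Experiment B held hrp1Δ, hrp3Δ, hrp1Δhrp3Δ and WT. Experiment C held 2 strains with exchanged C termini and WT. By its genotype, hrp3-CT(hrp1) lacks hrp1 and carries Hrp3 with the C terminus of Hrp1, whereas hrp1-CT(hrp3) lacks hrp3 and carries Hrp1 with the C terminus of Hrp3. Experiment D held hrp1Δhrp3Δ, prf1Δ, hrp1Δhrp3Δprf1Δ and WT, Prf1 being a factor of transcription elongation. Every strain, WT included, was h+ ade6-M216 ura4-D18 leu1-32, grew untreated in rich YES medium at 32 °C to an OD600 of about 0.5, and was represented by 1 strain per genotype. Mmi1 itself was intact in every strain.

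Fission yeast transcribes part of its meiotic programme during vegetative growth and destroys the products. Mmi1, a nuclear RNA-binding protein of the YTH family, recognises copies of the hexamer UNAAAC, which cluster in a region named the determinant of selective removal, and hands the transcript to the MTREC complex and the nuclear exosome. In meiosis Mei2, an RNA-binding protein, and the non-coding RNA sme2 (meiRNA) hold Mmi1 in a dot at the sme2 locus, and the transcripts survive. mei4, ssm4, spo5, rec8, mcp5, crs1 and spo4 encode products used in meiosis, and mei2 encodes the regulator whose protein Mmi1 in turn keeps low in growing cells.

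Searching the RefSeq coding sequences (ASM294v3, used for sequence and gene names only) for TNAAAC on the coding strand, the DNA form of the Mmi1 core motif, gave 18 copies in mcp5, 13 in ssm4, 11 in rec8, 10 in mei4, 7 in crs1, 6 in spo5, 3 in spo4 and 1 in mei2. Copies that overlapped would each have counted. A hexamer this short is common: 78.0% of the 5112 coding sequences held at least 1, and the median density was 1.52 per kb on the coding strand and 1.49 per kb on the other. Against that background crs1 held 7.75 per kb, rec8 6.52, ssm4 6.46, mei4 6.44, mcp5 6.19 and spo5 3.52, all 6 above the 90th percentile of 3.37, whereas spo4 held 2.33 and mei2 0.444, which is below the median. Each window shows the densest 30 bases of 1 coding sequence, 5′ to 3′ on the coding strand, with the hexamers in capitals. The windows were picked for their copies, and the densest windows of other coding sequences were not examined, so they illustrate the motif only. The last 2 windows hold 1 copy each.
mei4 (chromosome II, bases 720 to 749 of the coding sequence, counted from the A of ATG): tagtTTAAACtcaaatattgTTAAACcccc
ssm4 (chromosome I, bases 1411 to 1440): acagaagTTAAACattTGAAACtatgctta
spo5 (chromosome II, bases 1209 to 1238): gtTTAAACccagcaaaatcataTCAAACcg
rec8 (chromosome II, bases 1051 to 1080): tTAAAACcatggattgaaaagcTCAAACca
mcp5 (chromosome II, bases 1303 to 1332): caagtcaTTAAACtttTCAAACcgactaaa
crs1 (chromosome II, bases 819 to 848): tgcagaTGAAACttataTTAAACactcaaa
spo4 (chromosome II, bases 536 to 565): ttcatcgagataTCAAACcaggtaactttg
mei2 (chromosome I, bases 211 to 240): aaatctagtgaaTCAAACtcaattgattat

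**Figure D1:**
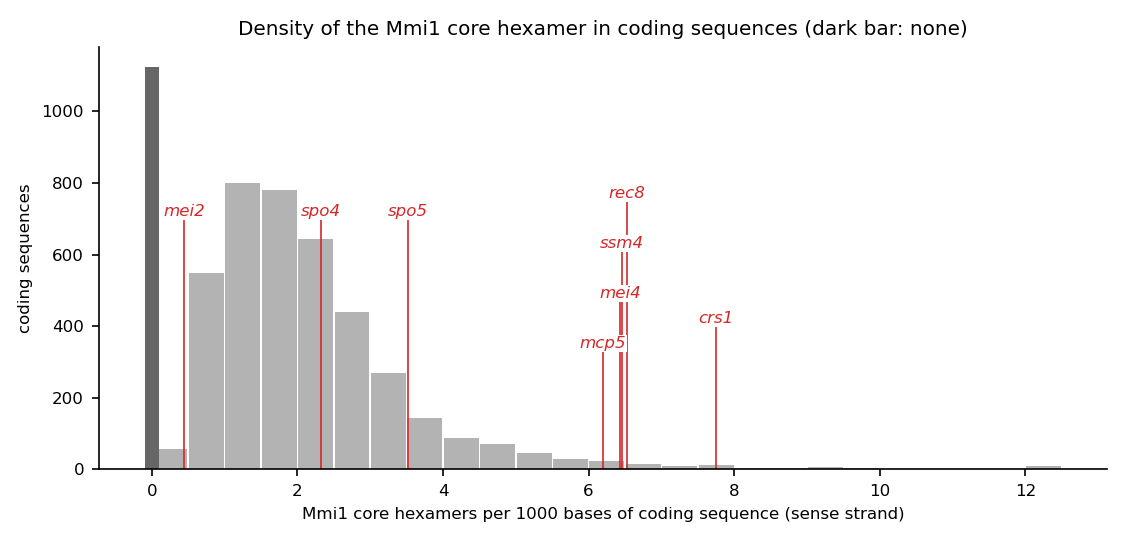
Number of coding sequences (y axis) by density of TNAAAC hexamers on the coding strand in copies per kb (x axis) for 5112 protein-coding genes, with a line at each of the 8 genes. crs1, rec8, ssm4, mei4, mcp5 and spo5 lie to the right of the 90th percentile at 3.37 per kb, and mei2 lies to the left of the median.

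Library totals of estimated counts ran between 470206 and 38590464 in batch 1 of experiment A, 5054945 and 9874249 in batch 2, 7222368 and 10013173 in B, 5203039 and 14320852 in C, and 3657 and 6278193 in D, so that 3 counts stood for up to 6.38 CPM (estimated counts scaled to a common library total) in batch 1 of A and at most 0.594 CPM in batch 2, B and C. In D, 3 libraries stood apart: WT replicate 3, hrp1Δhrp3Δ replicate 1 and hrp1Δhrp3Δprf1Δ replicate 2 correlated with the median profile at 0.68, 0.57 and 0.23, against 0.903 or more for every other library of the series, so results from D are given with and without them. Every mean ± SD of a group of D covers all 3 of its libraries, also beside a fold change fitted without those that stand apart. Over 21 pairs of a deletion label and the gene it names, the gene was at 0 in 7, called lower in 6 and not called in 7. It was called higher in 1, the libraries labelled fft2Δ, where fft2 averaged 55.9 ± 19.9 CPM against 26.3 ± 1.75 CPM in WT (SD, n = 3 each). In batch 1 of A, hrp3 averaged 28.2 CPM in libraries labelled hrp3Δ and 23.3 CPM in WT, hrp1 14.6 CPM in libraries labelled hrp1Δ and 21.2 CPM in WT, and rrp1 45.6 CPM in libraries labelled rrp1Δ and 35.2 CPM in WT, none of them called. In C the levels went against the labels of both exchange strains: hrp1, deleted by genotype in hrp3-CT(hrp1), averaged 87.1 CPM there and 90.4 CPM in WT, while hrp3, deleted by genotype in hrp1-CT(hrp3), averaged 83.4 CPM there and 62.3 CPM in WT. Conversely hrp3 was called lower in libraries labelled hrp3-CT(hrp1) (log2 fold change -0.56) and hrp1 in libraries labelled hrp1-CT(hrp3) (-1.28). Of the tested antisense entries of coding genes, 74.8% were called higher in libraries labelled hrp1-CT(hrp3) and 4.38% in those labelled hrp3-CT(hrp1). The paper reports the reverse, with antisense transcription raised in hrp3-CT(hrp1) and not in hrp1-CT(hrp3). Which strain each of these groups holds cannot be told from the tables, so strains are given throughout as the libraries are labelled, and every direction drawn from the libraries labelled fft2Δ, rrp1Δ, hrp3-CT(hrp1) and hrp1-CT(hrp3), from hrp1Δ and hrp3Δ of batch 1, and from prf1Δ, where prf1 averaged 58.6 ± 4.25 CPM against 94.5 ± 80.2 CPM in WT (SD, n = 3 each), carries that limit. So does hrp1Δhrp3Δprf1Δ, where prf1 (29.4 CPM) and hrp1 (32.1 CPM) were not called lower, and hrp1Δhrp3Δ of D, where hrp1 (12.9 CPM) was not. In hrp3Δ of B hrp3 was called lower but still had 25.3 CPM, or 606 counts. Also called lower with reads left were fft3 in fft3Δ (23.55 CPM), swr1 in swr1Δ (9.38 CPM) and rrp2 in rrp2Δ (3.87 CPM). The same held for hrp1 in hrp1Δ (9.7 CPM) and hrp1Δhrp3Δ (10.3 CPM) of B. These labels too were not matched by a full loss of the transcript.

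In WT the 8 transcripts were near the bottom of the transcriptome. On the length-corrected TPM scale, each of 7 had a mean level above no more than 8.12% of protein-coding genes in every experiment. mei2 was the exception, with a mean WT level of 14.4 TPM in C and 7.35 TPM in batch 1 of A, above 26.2% and 27.7% of coding genes, but only 0.789 TPM in B and 0.689 TPM in D, where the median coding gene stood at 18.2 and 22.1 TPM. ssm4 reached 4.07 TPM and mei4 2.01 TPM in the WT of C, and spo4 averaged 0 TPM in the WT of C and of batch 1 of A and 0.0372 TPM in D. mei2 was the highest of the 8 in A and C, crs1 in B (1.36 TPM) and ssm4 in D (2.01 TPM). The 7 members other than mei2, between 0 and 4.07 TPM, had too few reads to rank against each other in most libraries.

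Much of the signal over the members lay on the opposite strand. Over the WT libraries of each experiment, 98.8 to 98.9% of the pooled counts of coding genes were sense, a share that abundant genes set and that says nothing of single genes at the members' level. It was 13.6 to 22.8% for mcp5, 47.6 to 73.4% for mei4, 40.7 to 71.4% for rec8, 37.0 to 78.6% for crs1, 59.4 to 89.4% for ssm4 and 70 to 88.2% for spo5. mei2 was mostly sense in every experiment, at 87.8 to 100%, whereas spo4 was at 2.58% in batch 2 of A and 1.58% in B, on 1 sense count each. In the WT of C, for example, mei4 had 60.8% of 319 counts on its own strand (Wilson 95% interval 55.4 to 66.0%), and mcp5 22.8% (19.96 to 25.7%). These intervals, like the limits that counts of 0 set, cover counting error only, since the reads carried no molecular identifiers. Some of the opposite-strand signal has annotated neighbours: mcp5 shares reads with SPNCRNA.1397 and SPNCRNA.566 and spo4 with SPNCRNA.1644, and the 3′ end of crs1 is overlapped by ade9 on the other strand. RefSeq also lists further genes that overlap mei4, ssm4, rec8 and mei2, but their strand and type were not checked.

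Mutants were tested against the WT libraries of the same experiment or batch by edgeR's quasi-likelihood test over all entries that passed a filter on low counts, and a call is a Benjamini-Hochberg adjusted p under 0.05. Members that passed the filter in batch 1 of A were mei4, ssm4, mcp5 and mei2 on the sense strand and mei4, ssm4, spo5, mcp5 and spo4 on the antisense strand, while in B, C and D 7 sense members passed, all but spo4. Over 19 comparisons with WT there were 10 sense calls, of which 7 were mei2, 2 mei4 and 1 mcp5, and 12 antisense calls, of which 7 were spo5, an entry tested only where a mutant was high. The background is the share of tested protein-coding genes called in either direction, which for sense and antisense entries was 34.3% and 8.9% in fft2Δ, 24.1% and 10.3% in fft3Δ, and 26.3% and 12.5% in hrp1Δ of batch 1. In hrp3Δ it was 35% and 58.1%, in mit1Δ 11.4% and 1.92%, and in rrp1Δ 1.13% and 0.225%. In rrp2Δ it was 7.33% and 1.18%, in irc20Δ 24.6% and 3.44%, and in swr1Δ 4.62% and 1.92%. In batch 2 it was 0.0206% and 0% in fft1Δ, where edgeR called no antisense entry and 44 of 1681 had an unadjusted p under 0.05, and 42.3% and 11.3% in snf22Δ. Against these figures, 1 of 4 sense members was called in fft3Δ, hrp3Δ, irc20Δ and snf22Δ, in each case mei2, and none in the other 7 strains of experiment A. Across the 10 comparisons with no sense call, 3 of 49 member tests had an unadjusted p under 0.05 and DESeq2 called none of them. ssm4, spo5, rec8 and crs1 had no sense call in any comparison with all libraries, and the map of fold changes shows how far the calls gathered in mei2.

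**Figure D2:**
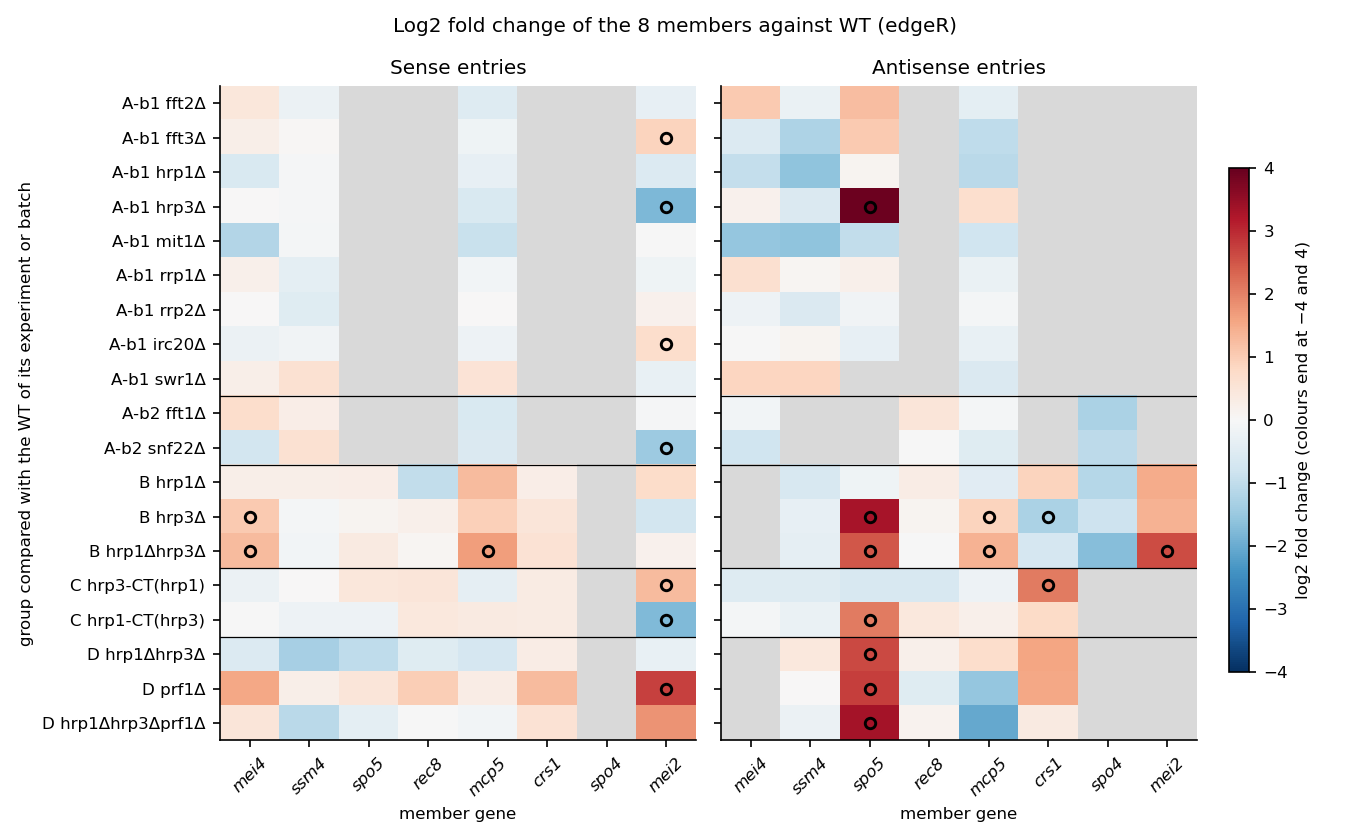
Log2 fold change against the WT of the same experiment or batch (colour, ending at 4 in either direction) for the 8 genes (columns) in 19 comparisons (rows). Sense entries are in the left panel and antisense entries in the right, with rings on calls of edgeR at an adjusted p under 0.05. Grey cells were not tested or had a group with no count, and 7 of the 10 rings of the sense panel lie in the mei2 column.

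mei2, the RNA-binding protein that switches cells into meiosis, was called in 7 of 19 comparisons, higher in 4 and lower in 3. In batch 1 of A it had 11.96, 12.2 and 10.6 CPM in libraries labelled hrp3Δ, against 26.9, 53.2 and 39.3 CPM in WT. The groups did not overlap, and the fall was -1.80 on the log2 scale (SE 0.23, adjusted p = 1.6e-06). The hrp3Δ libraries held 217, 35 and 5 counts of it, so the last library carries little weight. Because whole cultures were sequenced, fewer cells with the transcript and less transcript per cell cannot be told apart here or in any result that follows. In the other direction, fft3Δ had 58.7, 70.7 and 70.6 CPM, all above WT (log2 fold change 0.88, SE 0.20, adjusted p = 0.0032). irc20Δ had 65.2, 63.5 and 57.8 CPM, again all above WT (0.69, SE 0.20, adjusted p = 0.025). These gains rested in part on WT replicate 1, the lowest WT library: without it they came to 0.58 (adjusted p = 0.068) in fft3Δ and 0.40 (adjusted p = 0.34) in irc20Δ, and irc20Δ also lost its call without its own replicate 1 (0.72, adjusted p = 0.088) or 2 (0.67, adjusted p = 0.14). Libraries labelled hrp1Δ had 29.9, 23.0 and 27.3 CPM, which was not called (-0.55, adjusted p = 0.06).

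Loss of Snf22, the catalytic subunit of a SWI/SNF remodeler, went with a fall of mei2 in batch 2. mei2 had 8.78, 9.89 and 4.84 CPM in snf22Δ, against 18.0, 22.6 and 27.5 CPM in WT, with no overlap (log2 fold change -1.45, SE 0.25, adjusted p = 0.00071). In fft1Δ it had 26.9, 16.1 and 23.1 CPM, which spanned the WT range (-0.04). The snf22Δ and hrp3Δ calls of experiment A were kept under all 13 alternatives each, with log2 fold changes between -1.63 and -1.20 in snf22Δ and between -2.094 and -1.56 in hrp3Δ.

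In B mei2 was low and had no call against WT. It had 7.21, 8.09 and 7.95 CPM in hrp1Δ, 3.24, 2.82 and 2.91 CPM in hrp3Δ and 6.51, 5.95 and 5.56 CPM in hrp1Δhrp3Δ, against 2.15, 4.48 and 5.51 CPM in WT. The hrp1Δ and hrp1Δhrp3Δ libraries lay above every WT library and hrp3Δ overlapped WT, but none of these was called: the log2 fold change was 0.75 in hrp1Δ (adjusted p = 0.10), -0.74 in hrp3Δ (0.066) and 0.17 in hrp1Δhrp3Δ. Without WT replicate 3 the value in hrp1Δ was 1.099 (adjusted p = 0.025), and without WT replicate 1 that in hrp3Δ was -1.03 (adjusted p = 0.0054). The direct contrast of the single deletions did separate them, with mei2 lower in hrp3Δ than in hrp1Δ (log2 fold change -1.49, SE 0.29, adjusted p = 0.0013). The background in B was 10.4% of sense and 13.7% of antisense entries in hrp1Δ, 37.4% and 50.5% in hrp3Δ, 50.5% and 68.7% in hrp1Δhrp3Δ, and 32.3% and 41% between hrp3Δ and hrp1Δ. hrp1Δhrp3Δ against hrp3Δ had a background of 7.41% and 15.1% and no member call, although 1 sense and 3 antisense members had an unadjusted p under 0.05 and DESeq2 also called none. mei2 came nearest there (0.91, adjusted p = 0.066).

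The C-terminal exchange strains of C gave the highest mei2 levels of the series and some of its largest changes. It had 198, 138 and 151 CPM in libraries labelled hrp3-CT(hrp1) and 23.6, 23.1 and 22.6 CPM in libraries labelled hrp1-CT(hrp3), against 62.4, 57.4 and 82.2 CPM in WT. The 3 groups did not overlap. The change was 1.27 in hrp3-CT(hrp1) (SE 0.13, adjusted p = 0.00016) and -1.77 in hrp1-CT(hrp3) (SE 0.15, adjusted p = 1.1e-06), and the direct contrast of hrp1-CT(hrp3) with hrp3-CT(hrp1) was -3.04 (SE 0.15, adjusted p = 2.1e-08). Each of these calls was kept under every alternative run, the direct contrast lying between -3.14 and -2.78. The background was 9.53% of sense and 5.86% of antisense entries in hrp3-CT(hrp1), 56.6% and 76.3% in hrp1-CT(hrp3), and 60.7% and 71.9% in the direct contrast, and mei2 was the only called one of 7 sense members in each. The median coding gene lay at -0.24 in hrp1-CT(hrp3), and scaling on coding genes alone left the mei2 change at -1.52.

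**Figure D3:**
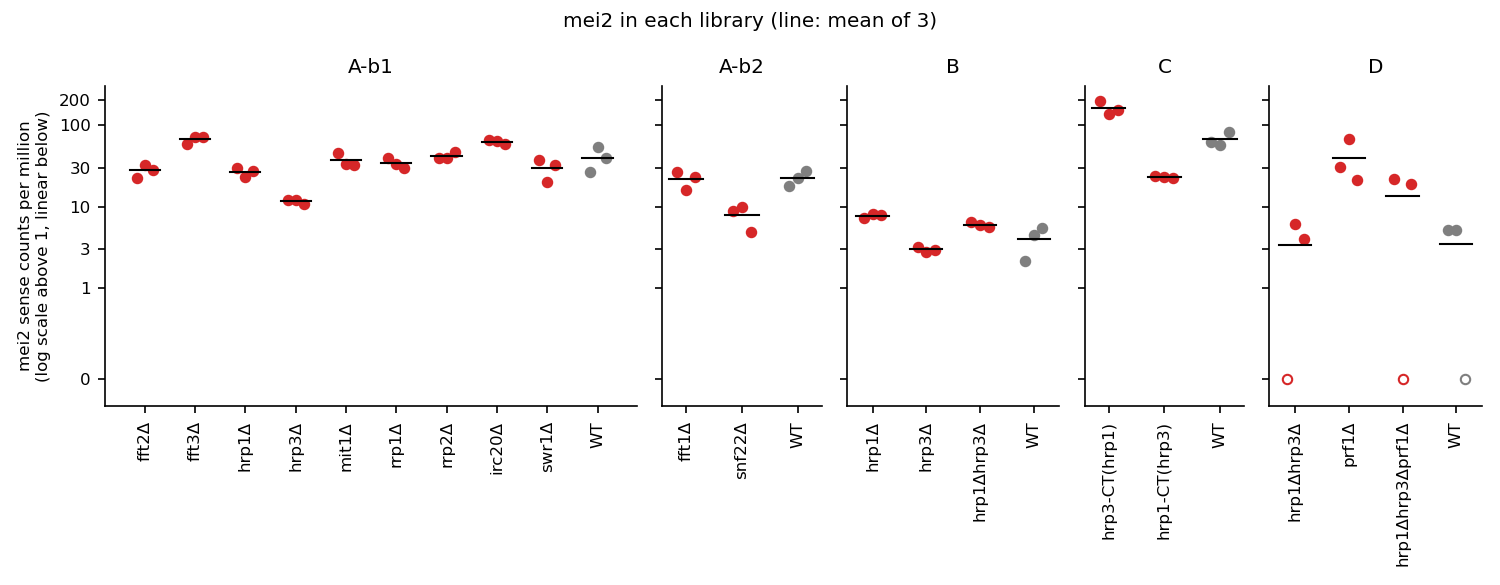
mei2 level in CPM (y axis, logarithmic above 1) in each of the 72 libraries, 1 panel per experiment or batch, mutants left of WT, with open circles for the 3 libraries of D that stand apart. In C the libraries labelled hrp3-CT(hrp1) sit between 138 and 198 CPM and those labelled hrp1-CT(hrp3) between 22.6 and 23.6 CPM.

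In D, mei2 was higher than WT in prf1Δ. It had 30.4, 67.2 and 20.96 CPM in prf1Δ and 21.8, 0 and 18.7 CPM in hrp1Δhrp3Δprf1Δ, against 5.18, 5.23 and 0 CPM in WT, the zeros being libraries that stand apart. hrp1Δhrp3Δ had 0, 6.16 and 4.04 CPM. With all libraries the change was 2.74 in prf1Δ (SE 0.85, adjusted p = 0.032) and 1.81 in hrp1Δhrp3Δprf1Δ (adjusted p = 0.18), and without the 3 libraries it was 2.57 (SE 0.54, adjusted p = 0.0028) and 1.75 (SE 0.59, adjusted p = 0.034). The first call was lost without WT replicate 1 (2.97, adjusted p = 0.074) or 2 (3.00, adjusted p = 0.075) and without prf1Δ replicate 1 (2.94, adjusted p = 0.057) or 2 (2.06, adjusted p = 0.16), each time with the 3 libraries that stand apart kept in the fit unless named. The background with all libraries was 0.712% of sense and 36.1% of antisense entries in hrp1Δhrp3Δ, 4.82% and 44.1% in prf1Δ and 4.09% and 34.8% in hrp1Δhrp3Δprf1Δ. Without the 3 libraries it was 8.97% and 46.3%, 39.6% and 67.9%, and 32.1% and 58.6% in the same order.

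Other members were called in prf1Δ once the 3 libraries were left out. The 7 members other than mei2 summed to 103.8, 48.5 and 100.2 CPM in prf1Δ, against 47.1, 28.4 and 3.55 CPM in WT, where the last library is the one that stands apart. With all libraries mei2 alone of 7 sense members was called. Without the 3 libraries 4 of 8 were, all higher, against the background of 39.6%, of which 4.76% of coding genes were called higher and 34.9% lower. One of the 4, spo4, had no WT library past the filter and was tested only because it was high in prf1Δ, so it had to differ. mei4, the forkhead transcription factor of middle meiosis, had 24.7, 17.1 and 29.2 CPM in prf1Δ, against 6.83, 6.35 and 0.507 CPM in WT, with no overlap (1.45 without the 3 libraries, SE 0.40, adjusted p = 0.012, and 1.54 with them, adjusted p = 0.16). crs1, a meiotic cyclin, had 8.28, 5.57 and 11.3 CPM, against 3.06, 1.12 and 1.01 CPM in WT (1.54 without the 3 libraries, SE 0.51, adjusted p = 0.028, and 1.26 with them, adjusted p = 0.17). spo4, the kinase of the second meiotic division, had 4.80, 0.504 and 6.65 CPM, or 69 counts in all, against 0.288, 0 and 0 CPM in WT, or 1 count. That is a pooled ratio of 36.9 with a counting interval of 6.41 to 1480, and its fitted change of 4.19 without the 3 libraries (adjusted p = 0.026) depends on the prior count and on that filter. The remaining members were not called in prf1Δ without the 3 libraries: rec8 had 0.81 (adjusted p = 0.16), spo5 0.61 (adjusted p = 0.35), mcp5 0.20 (adjusted p = 0.83) and ssm4 0.04 (adjusted p = 0.95). All of these are relative to a median coding gene at -0.48 in that fit, and the smallest effects could not be seen: in data simulated on D with all libraries no 4-fold change was recovered, and without the 3 libraries 89% of 4-fold and 14% of 2-fold changes were.

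**Figure D4:**
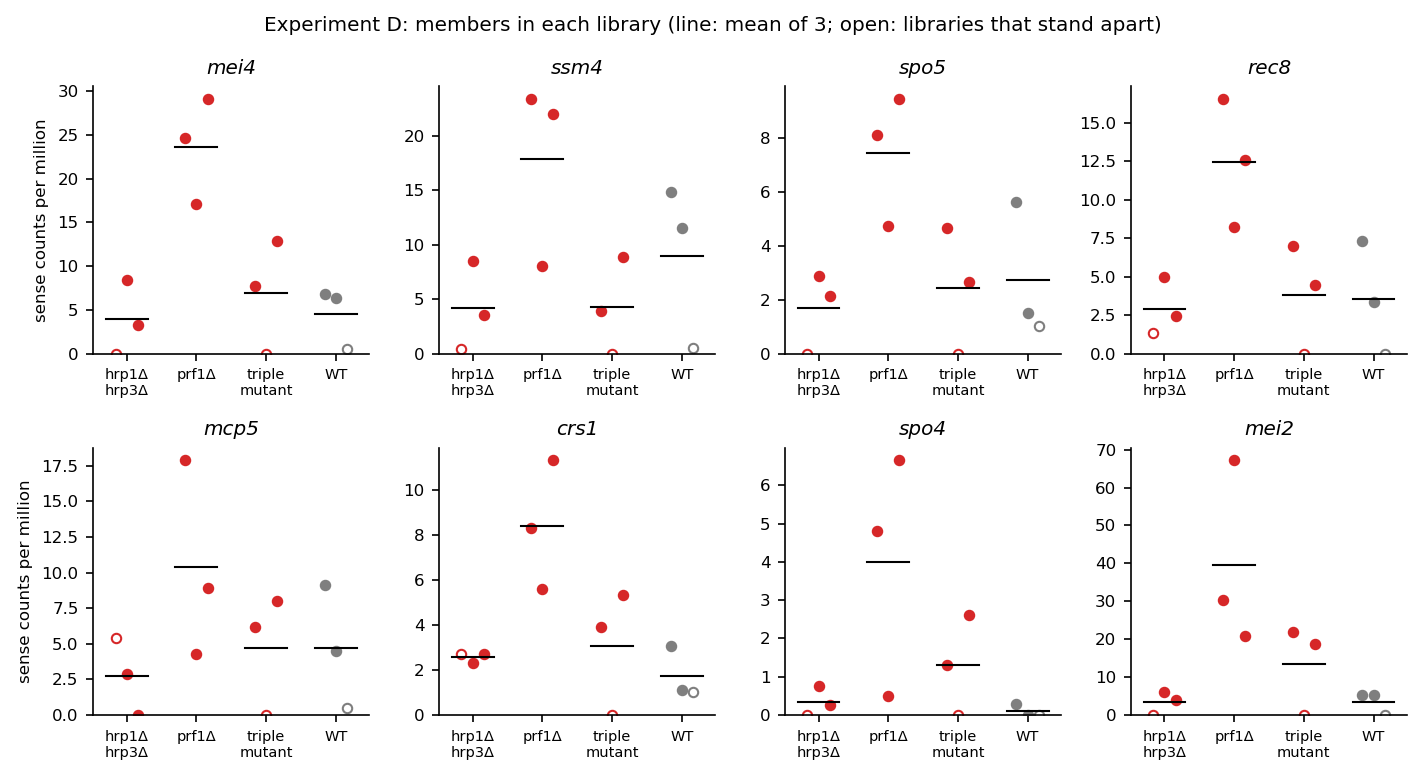
Sense level in CPM (y axis) of each of the 8 genes, 1 panel per gene, in the 12 libraries of experiment D, mutants left of WT, with open circles for the 3 libraries that stand apart. In prf1Δ mei4 lies between 17.1 and 29.2 CPM and crs1 between 5.57 and 11.3 CPM, above every WT library.

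In the triple mutant mei4, crs1 and spo4 were not called, with or without the 3 libraries. mei4 had 7.78, 0 and 12.9 CPM in hrp1Δhrp3Δprf1Δ and crs1 3.89, 0 and 5.34 CPM, the zeros again in the library that stands apart, through which both genes overlapped WT. spo4 had 1.30, 0 and 2.60 CPM and a fitted value of 3.53 without the 3 libraries (adjusted p = 0.10). mei2 was the sense member called there without them. hrp1Δhrp3Δ had no sense call in D with or without the 3 libraries, no member test had an unadjusted p under 0.05 with all libraries, and DESeq2 called none.

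mei4 moved with the CHD deletions in B. It had 6.71, 2.58 and 4.71 CPM in hrp3Δ and 6.26, 3.46 and 7.22 CPM in hrp1Δhrp3Δ, against 1.75, 2.19 and 1.57 CPM in WT. All 6 libraries lay above the 3 of WT, and the change was 1.06 in hrp3Δ (SE 0.38, adjusted p = 0.04) and 1.25 in hrp1Δhrp3Δ (SE 0.38, adjusted p = 0.012). hrp1Δ, with 2.72, 1.60 and 2.97 CPM, was not called (0.23). Both calls were near the threshold. That in hrp3Δ was lost without WT replicate 1 (1.02, adjusted p = 0.096), 2 (1.15, adjusted p = 0.067) or 3 (1.01, adjusted p = 0.097) and without hrp3Δ replicate 1 (0.72, adjusted p = 0.20) or 3 (1.05, adjusted p = 0.079), and that in hrp1Δhrp3Δ without its replicate 3 (1.03, adjusted p = 0.06). Against hrp1Δ, where the background was 42.1% of sense and 60.6% of antisense entries, mei4 was higher in hrp1Δhrp3Δ by 1.03 (SE 0.37, adjusted p = 0.033), a call lost without hrp1Δ replicate 2 (0.79, adjusted p = 0.13) and hrp1Δhrp3Δ replicate 1 (0.97, adjusted p = 0.083) or 3 (0.80, adjusted p = 0.14). In C mei4 had 5.01, 4.75 and 5.66 CPM in hrp3-CT(hrp1) and 6.81, 8.65 and 5.90 CPM in hrp1-CT(hrp3), against 4.82, 6.07 and 7.48 CPM in WT, all overlapping (-0.23 and -0.02). In batch 1 of A, hrp3Δ had 3.03, 2.79 and 6.38 CPM, against 2.25, 3.55 and 3.87 CPM in WT, also overlapping.

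mcp5 encodes the cortical anchor that pulls the nucleus back and forth in meiotic prophase through dynein, and ssm4 encodes a subunit of the dynactin that works with it. The mcp5 entry had 3.29, 4.55 and 5.38 CPM in hrp1Δhrp3Δ of B, against 1.93, 1.401 and 0.0011 CPM in WT (1.68, SE 0.67, adjusted p = 0.045), but the quantifier split reads between mcp5 and its overlapping non-coding entries unevenly, assigning almost none to mcp5 in WT replicate 3. Without WT replicate 2 (1.90, adjusted p = 0.068) or 3 (1.103, adjusted p = 0.10), or hrp1Δhrp3Δ replicate 2 (1.63, adjusted p = 0.087) or 3 (1.505, adjusted p = 0.12), it was not called. With the overlapping entries of the locus summed, the sense strand had 7.04 ± 0.35 CPM in hrp1Δhrp3Δ, 4.96 ± 0.52 CPM in hrp1Δ and 4.51 ± 1.25 CPM in hrp3Δ, against 3.15 ± 0.45 CPM in WT (SD, n = 3 each), and hrp1Δhrp3Δ stayed called at 0.77. By the same sum mcp5 was lower in snf22Δ, with 2.44 ± 0.45 CPM against 5.19 ± 1.56 CPM in WT (-0.99, adjusted p = 0.048, SD, n = 3 each). In prf1Δ of D the sum was higher than in WT without the 3 libraries (1.31, SE 0.39, adjusted p = 0.018). With all libraries it was 27.4 ± 7.66 CPM in prf1Δ and 5.67 ± 5.84 CPM in WT (SD, n = 3 each). The WT library that stands apart had 0.507 CPM. ssm4 had no sense call. It had 15.46, 18.5 and 17.5 CPM in hrp1-CT(hrp3) and 18.3, 18.3 and 14.2 CPM in hrp3-CT(hrp1), against 15.2, 17.9 and 17.02 CPM in WT. Over the 9 comparisons of batch 1 of A its log2 fold change lay between -0.49 and 0.61, and in B and C between -0.19 and 0.23. In D it lay between -1.34 and 0.23, with 0.45, 8.47 and 3.50 CPM in hrp1Δhrp3Δ at the low end (adjusted p = 0.33, and -1.23 without the 3 libraries, adjusted p = 0.11). The nearest to a call was snf22Δ, with 5.46, 6.13 and 5.91 CPM against 3.95, 4.10 and 3.93 CPM in WT, which did not overlap and gave 0.62 (SE 0.26, adjusted p = 0.089).

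rec8, the meiotic cohesin subunit, spo5, an RNA-binding protein needed for meiosis II and spore formation, and the cyclin crs1 had too few reads to pass the filter in A and were not called in B or C. rec8 had 1.30, 0.30 and 0.944 CPM in hrp1Δ of B, against 1.75, 1.64 and 1.12 CPM in WT, overlapping by 1 library. In C it had 6.19, 6.30 and 5.95 CPM in hrp3-CT(hrp1), against 3.84, 5.42 and 4.01 CPM in WT, without overlap but not called (0.48, adjusted p = 0.25). crs1 had 4.01, 4.43 and 5.92 CPM in hrp1Δhrp3Δ of B, against 2.56, 2.40 and 2.47 CPM in WT, and its log2 fold changes were positive in all 8 comparisons in which it was tested, none of them called. In hrp3Δ of B it had 5.79, 1.23 and 5.82 CPM (0.49), and without replicate 2, the low library, it was called at 0.92 (adjusted p = 0.044). spo5 ran between 0.12 and 0.34 in B and between -0.20 and 0.46 in C. spo4 had 1.13, 0.548 and 0.771 CPM in libraries labelled hrp1-CT(hrp3) and practically no count in the WT of C, and was not tested. WT reads of that strand were assigned to an overlapping non-coding entry, and whether they came from its spo4 part was not checked. With the entries of the locus summed, the sense strand had 1.31, 0.769 and 0.885 CPM in libraries labelled hrp1-CT(hrp3), against 0.489, 0.325 and 0.108 CPM in WT.

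On the antisense strand spo5 was high in libraries labelled with an hrp3 deletion and in prf1Δ. In B it had 5.21, 4.66 and 4.57 CPM in hrp3Δ, 3.01, 2.91 and 2.72 CPM in hrp1Δhrp3Δ and 0.236, 0.499 and 0.404 CPM in hrp1Δ, against 0.539, 0.437 and 0.225 CPM in WT. hrp3Δ and hrp1Δhrp3Δ lay far above WT while hrp1Δ overlapped it. The change was 3.29 in hrp3Δ (SE 0.39, adjusted p = 1.2e-05) and 2.47 in hrp1Δhrp3Δ (SE 0.40, adjusted p = 0.00012). Against hrp1Δ it was 3.48 in hrp3Δ (SE 0.39, adjusted p = 1e-05) and 2.65 in hrp1Δhrp3Δ (SE 0.40, adjusted p = 9.5e-05). Libraries labelled hrp3Δ in batch 1 of A had 5.07, 4.18 and 4.25 CPM, or 106 counts, against 0.375, 0 and 0 CPM in WT, or 3 counts, a pooled ratio of 17.5 with a counting interval of 5.84 to 86.4. In C, libraries labelled hrp1-CT(hrp3) had 4.06, 3.27 and 2.73 CPM and those labelled hrp3-CT(hrp1) 0.59, 0.31 and 0.384 CPM, against 0.768, 0.433 and 0.759 CPM in WT. Only the libraries labelled hrp1-CT(hrp3) were called, at 2.089 against WT (SE 0.41, adjusted p = 0.00084) and 2.74 against hrp3-CT(hrp1) (SE 0.45, adjusted p = 0.00022). No WT library of batch 1 of A, B, C or D had antisense spo5 reach the filter, so the entry was tested only through the groups where it was high and had to differ, and in batch 2, where no group was high, it was not tested. With every entry kept, the adjusted p was 0.00041 in hrp3Δ of batch 1, 8.2e-06 and 0.00014 in hrp3Δ and hrp1Δhrp3Δ of B, and 0.0012 in hrp1-CT(hrp3).

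In D antisense spo5 was high in all 3 mutants, with 0.90, 3.85 and 6.20 CPM in hrp1Δhrp3Δ, 6.21, 4.95 and 6.74 CPM in prf1Δ and 8.56, 0 and 7.57 CPM in hrp1Δhrp3Δprf1Δ, against 0.471, 0.373 and 0.507 CPM in WT. The changes were 2.65 (adjusted p = 0.028), 2.76 (adjusted p = 0.015) and 3.32 (adjusted p = 0.01) with all libraries and 3.39 (adjusted p = 0.0045), 3.34 (adjusted p = 0.0016) and 3.94 (adjusted p = 0.0014) without the 3 that stand apart, in the order just given. With WT replicate 3 in the fit each call of spo5 was lost without WT replicate 1 (adjusted p = 0.19, 0.095 and 0.064) or 2 (0.15, 0.084 and 0.06), and also without hrp1Δhrp3Δ replicate 3 (0.097), prf1Δ replicate 1 (0.055) or 3 (0.058) and hrp1Δhrp3Δprf1Δ replicate 1 (0.055). Antisense spo5 did not stand alone: the median antisense log2 fold change over coding genes was 1.52 in hrp3Δ of batch 1, 1.12 in hrp3Δ and 1.73 in hrp1Δhrp3Δ of B, 2.04 in hrp1-CT(hrp3), and 2.05, 2.05 and 1.99 in hrp1Δhrp3Δ, prf1Δ and hrp1Δhrp3Δprf1Δ of D, and lay between -0.14 and 0.39 in the remaining 12 comparisons. The sense level of spo5 was not called in B, C or D and was not tested in A.

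**Figure D5:**
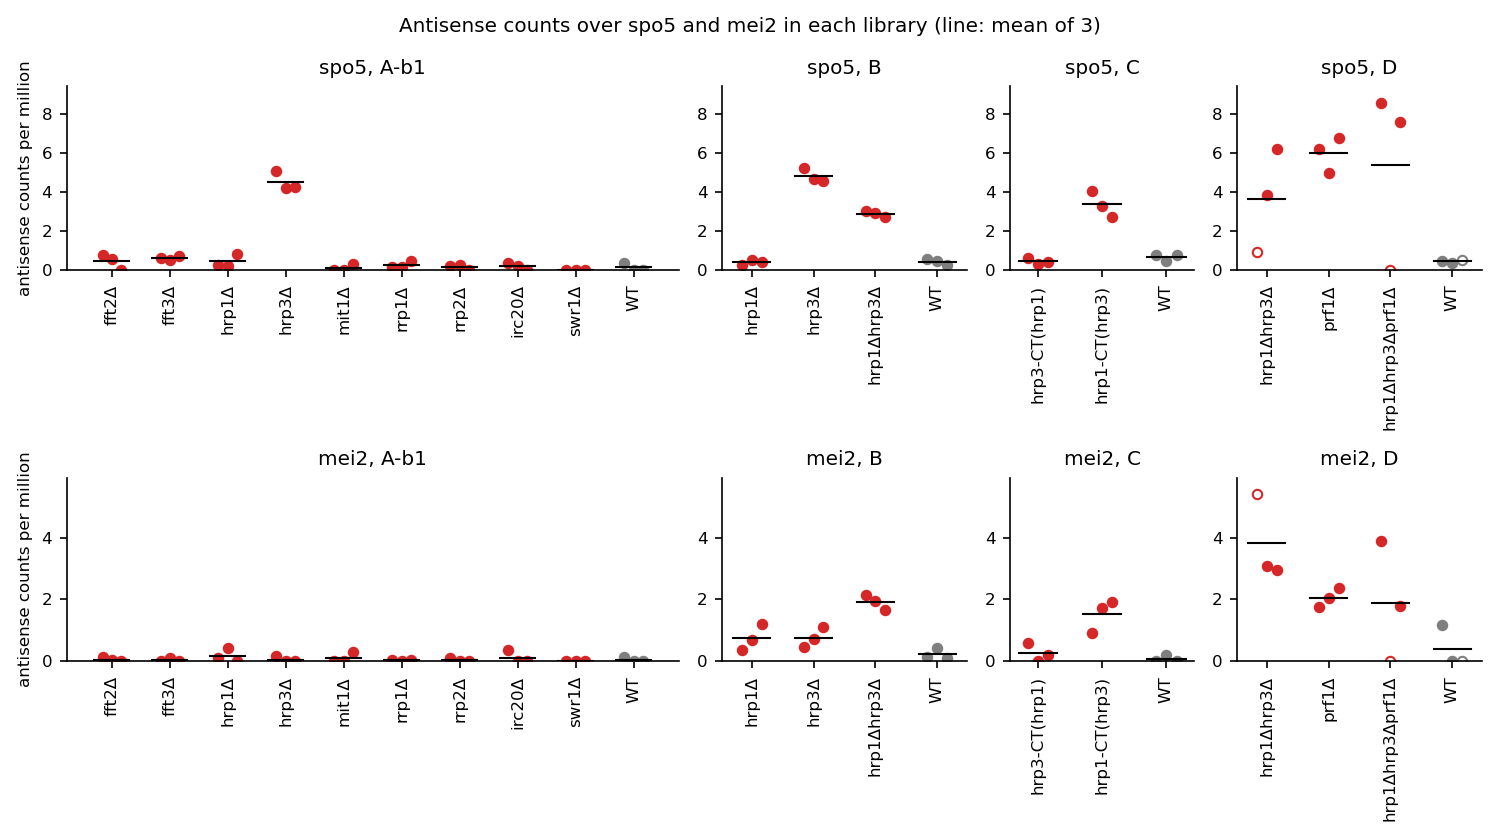
Antisense level in CPM (y axis) of spo5 and mei2 in the libraries of batch 1 of A, B, C and D, mutants left of WT, with open circles for the 3 libraries of D that stand apart. Antisense spo5 lies between 4.57 and 5.21 CPM in hrp3Δ of B and between 0.225 and 0.539 CPM in WT.

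Antisense reads over mei2 were scarce. They came to 2.13, 1.94 and 1.66 CPM in hrp1Δhrp3Δ of B, against 0.135, 0.437 and 0.112 CPM in WT (2.61, SE 0.62, adjusted p = 0.0024). No WT library reached the filter, so mei2 antisense was tested only through the group where it was high and had to differ, and with every entry kept the adjusted p was 0.0042. The single deletions lay in between, with 0.355, 0.699 and 1.21 CPM in hrp1Δ (1.47, adjusted p = 0.17) and 0.463, 0.736 and 1.11 CPM in hrp3Δ (1.38, adjusted p = 0.12), neither called. In C mei2 antisense was filtered out and was not tested, and libraries labelled hrp1-CT(hrp3) held 42 counts against 2 in WT, a pooled ratio of 26.1 with a counting interval of 6.78 to 222. In these libraries the sense transcript was lower than in WT, whereas in hrp1Δhrp3Δ of B it was not called, at 0.17.

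The antisense strand of mcp5 carried more reads than the sense strand in every WT group and rose with hrp3 deletion in B. The entry had 12.4, 15.6 and 9.94 CPM in hrp3Δ, 18.6, 21.2 and 17.4 CPM in hrp1Δhrp3Δ and 5.197, 5.47 and 3.14 CPM in hrp1Δ, against 5.68, 4.56 and 6.67 CPM in WT. The change was 0.88 in hrp3Δ (SE 0.25, adjusted p = 0.0099) and 1.38 in hrp1Δhrp3Δ (SE 0.24, adjusted p = 0.00022), set against medians of 1.12 and 1.73 over the antisense entries of all coding genes. With the overlapping entries summed the antisense strand had 18.2 ± 0.59 CPM in hrp3Δ, 23.2 ± 1.68 CPM in hrp1Δhrp3Δ and 8.68 ± 1.08 CPM in hrp1Δ, against 11.3 ± 1.37 CPM in WT (SD, n = 3 each). The summed changes were smaller, at 0.41, 0.68 and -0.53, each called. Against hrp1Δ the entry gave 1.32 in hrp3Δ (SE 0.25, adjusted p = 0.00095) and 1.82 in hrp1Δhrp3Δ (SE 0.25, adjusted p = 3.7e-05). The hrp3Δ call was lost without WT replicate 2 (0.70, adjusted p = 0.053) and without hrp3Δ replicate 2 (0.68, adjusted p = 0.056).

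Antisense crs1, whose sense 3′ end is overlapped by ade9, was lower in hrp3Δ of B. It had 1.04, 1.35 and 1.66 CPM in hrp3Δ and 2.60, 6.89 and 7.28 CPM in hrp1Δ, against 2.15, 2.51 and 3.26 CPM in WT. hrp3Δ lay below every WT library (-1.26, SE 0.44, adjusted p = 0.034) and below hrp1Δ (-2.16, SE 0.42, adjusted p = 0.0012), and hrp1Δhrp3Δ lay below hrp1Δ (-1.58, SE 0.40, adjusted p = 0.0051). The call against WT was lost without WT replicate 3 (-1.01, adjusted p = 0.12) and hrp3Δ replicate 1 (-1.08, adjusted p = 0.12) or 2 (-1.29, adjusted p = 0.071), and when scaled on coding genes (-1.096, adjusted p = 0.067). In C it had 5.90, 3.00 and 4.22 CPM in libraries labelled hrp3-CT(hrp1) and 2.097, 2.11 and 1.92 CPM in those labelled hrp1-CT(hrp3), against 1.61, 0.65 and 0.651 CPM in WT. Here hrp3-CT(hrp1) was higher than WT (2.089, SE 0.42, adjusted p = 0.0097), and hrp1-CT(hrp3) lower than hrp3-CT(hrp1) (-1.32, SE 0.40, adjusted p = 0.012). In prf1Δ of D antisense crs1 had 5.10, 2.89 and 5.10 CPM, against 0.235, 1.12 and 1.01 CPM in WT, and was called without the 3 libraries (2.42, SE 0.74, adjusted p = 0.019), where no WT library reached the filter, but not with them (1.55, adjusted p = 0.21). The antisense entries of mei4, ssm4 and rec8 were not called in any comparison with WT. The spo4 antisense entry traded its reads with SPNCRNA.1644, and with both summed it was lower in hrp3Δ (-0.87) and hrp1Δhrp3Δ (-0.76) of B and in prf1Δ of D without the 3 libraries (-1.31, SE 0.28, adjusted p = 0.0031).

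hrp1Δ and hrp3Δ were grown in both A and B, and hrp1Δhrp3Δ in both B and D, which allowed each change to be compared between experiments by an interaction term. For hrp1Δ 5.68% of entries differed between batch 1 of A and B and no member did. mei2 differed by 1.25 (SE 0.43, adjusted p = 0.096), which was not called. For hrp3Δ 9.92% of entries differed, and of the members antisense crs1 did, by -3.59 (SE 0.96, adjusted p = 0.029), while mei2 differed by 1.25 (SE 0.46, adjusted p = 0.096) and antisense spo5 by -0.39 (adjusted p = 0.82). For hrp1Δhrp3Δ between B and D the edgeR interaction called 0% of entries, 384 of 10639 had an unadjusted p under 0.05, and no other tool was run. That fit kept the WT and hrp1Δhrp3Δ libraries of D that stand apart and was not run without both. The lack of calls therefore does not show that B and D agree. Thus the fall of mei2 in libraries labelled hrp3Δ, called in A and not in B, was not shown to differ between them.

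Over the 16 comparisons of A, B and C, which share WT libraries within each experiment so that r is a description with no chance level, the coding gene whose log2 fold changes were most like those of mei2 was ste4, an adaptor of the pheromone-response kinase cascade (Pearson r = 0.882, the highest of 4804 genes). ste4 had 76.2 ± 1.09 CPM in libraries labelled hrp3-CT(hrp1) and 9.80 ± 0.68 CPM in those labelled hrp1-CT(hrp3), against 42.6 ± 5.68 CPM in WT, and 7.02 ± 0.46 CPM in snf22Δ against 22.8 ± 2.07 CPM in WT (SD, n = 3 each). The closest genes for the others were pmp20 for mei4 (0.797), snx3 for ssm4 (0.882, as high as for mei2 although ssm4 was never called) and SPAC4H3.04c for mcp5 (0.879). Among the 100 genes most like each member, mei4 and mcp5 each had the other (r = 0.658), and mei2 and ssm4 had no other member.

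ste11, the HMG-box factor that activates mei2 transcription on starvation, was called in the same direction as mei2 in some strains and not in others. In snf22Δ it had 10.09 ± 0.43 CPM against 87.6 ± 3.48 CPM in WT (-3.04), and in C 109 ± 41.3 CPM in libraries labelled hrp3-CT(hrp1) (0.87, adjusted p = 0.052) and 27.8 ± 4.14 CPM in those labelled hrp1-CT(hrp3) (-1.33), against 59.9 ± 21.9 CPM in WT (SD, n = 3 each). In batch 1 of A, ste11 was higher in fft3Δ (2.37) and irc20Δ (1.30), where mei2 was higher, but also in libraries labelled hrp3Δ (0.62), where mei2 was lower, and in fft2Δ (1.85), hrp1Δ (1.45), mit1Δ (1.51), rrp1Δ (1.35) and rrp2Δ (1.25), where mei2 was not called. That is 8 of the 9 mutants, which share 1 set of WT libraries, swr1Δ being the other (0.60, adjusted p = 0.18). In B it was lower in hrp3Δ (-1.35) and hrp1Δhrp3Δ (-1.59), where mei2 was not called, as in hrp1Δhrp3Δ of D (-2.61), and in prf1Δ of D it was not called (0.68). The 12 mating and starvation markers found in the tables follow cells leaving vegetative growth. Of the 10 tested in batch 1, 4 were higher in fft3Δ (40% called, against 24.1% of all coding genes), 5 in irc20Δ (50 against 24.6%), 4 with 1 lower in hrp3Δ (50 against 35%), 4 in mit1Δ (40 against 11.4%), 4 in fft2Δ (40 against 34.3%), 3 with 1 lower in hrp1Δ (40 against 26.3%), 3 in rrp2Δ (30 against 7.33%), 2 in rrp1Δ (20 against 1.13%) and 1 in swr1Δ (10 against 4.62%). In snf22Δ none was higher and 2 of 10 were lower (20 against 42.3%), in libraries labelled hrp1-CT(hrp3) 1 of 11 was higher and 6 lower (63.6 against 56.6%), and in those labelled hrp3-CT(hrp1) 2 were higher and 1 lower (27.3 against 9.53%). Their summed level without the abundant invertase inv1 was above WT of batch 1 (248 to 417 CPM) in every library of 8 of the 9 mutants, whether or not mei2 was called: 553 to 721 CPM in fft3Δ, 490 to 731 CPM in irc20Δ and 503 to 581 CPM in hrp3Δ, and between 436 and 619 CPM in fft2Δ, hrp1Δ, mit1Δ, rrp1Δ and rrp2Δ, while swr1Δ (329 to 585 CPM) overlapped WT. It was 213 to 257 CPM in snf22Δ against 304 to 338 CPM in WT, and 844 to 1056 CPM in libraries labelled hrp3-CT(hrp1) and 562 to 713 CPM in those labelled hrp1-CT(hrp3) against 574 to 917 CPM in WT of C. In prf1Δ of D, where mei2 was called, it was 364 to 470 CPM against 34.5 to 326 CPM in WT, the low value being the library that stands apart. With inv1 included, WT of batch 1 had 1297 to 1926 CPM. Every mutant of that batch overlapped this except irc20Δ (2094 to 2552 CPM). In C the full sum was 1741 to 1816 CPM in libraries labelled hrp3-CT(hrp1), against 1761 to 2433 CPM in WT. Those labelled hrp1-CT(hrp3) had 1969 to 2084 CPM. The full sum was 253 to 300 CPM in snf22Δ against 437 to 490 CPM in its WT. In prf1Δ it was 574 to 736 CPM against 50.7 to 446 CPM in WT. The pheromone gene mfm1 was at 0 in mit1Δ, in hrp3-CT(hrp1) and in WT of D. Their part in the mei2 changes was not tested.

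The machinery that removes these transcripts was read through mmi1 and a list of 15 genes. mmi1 itself lay between -0.28 and 0.75 over 19 comparisons and was called in hrp1Δ of batch 1 of A alone (adjusted p = 0.035). Of the RNA elimination genes, 6 were higher in hrp3Δ of batch 1 (40% called, against 35% of all coding genes), among them the MTREC helicase mtl1 (0.99), 2 were higher and 5 lower in snf22Δ (46.7 against 42.3%), with the exosome nuclease rrp6 at -0.41, and 5 were lower in libraries labelled hrp1-CT(hrp3) (33.3 against 56.6%), with the poly(A) polymerase pla1 at -0.37 and a list median of -0.14 against -0.24 for all coding genes. In prf1Δ of D without the 3 libraries 4 of 15 were lower and none higher (26.7 against 39.6%): rhn1 (-1.54), erh1, the partner of Mmi1 (-1.04), pla1 (-0.97) and dis3 (-0.88), with a list median of -0.44 against -0.48 for all coding genes. sme2, the RNA that retains Mmi1 in meiosis, had 109 ± 17.8 CPM in prf1Δ against 29.9 ± 22.8 CPM in WT (SD, n = 3 each), and was called without the 3 libraries (2.31, SE 0.36, adjusted p = 0.00061). sme2 was lower in fft3Δ (-1.54) and irc20Δ (-1.34), where mei2 was higher, and in fft2Δ (-1.90) of the same batch, where mei2 was not called.

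Genes that Mei4 activates in middle meiosis were also called in strains in which mei4 was not. The paper places the listed spo6 within lam2 and mfr1 within tfg2, each transcribed opposite to its longer host gene. What part antisense transcription of host genes, or Mei4, had in the values below was not tested. In hrp3Δ of batch 1, 6 of 10 tested were higher and 1 lower (70% called, against 35% of all coding genes), with a list median of 0.69 against -0.07 for all coding genes, and in libraries labelled hrp1-CT(hrp3) 7 of 11 were higher and none lower (63.6 against 56.6%), with medians of 0.34 and -0.24. The largest were spn6, a meiotic septin, with 20.2 ± 2.11 CPM in hrp3Δ of batch 1 against 0.167 ± 0.289 CPM in WT and 54.2 ± 0.64 CPM in libraries labelled hrp1-CT(hrp3) against 1.33 ± 0.475 CPM in WT, and spo6, the regulatory partner of the kinase Spo4, with 16.9 ± 0.453 CPM in hrp3Δ against 0.805 ± 0.702 CPM in WT and 16.2 ± 2.097 CPM in hrp1-CT(hrp3) against 1.55 ± 0.316 CPM in WT (SD, n = 3 each). No WT library of batch 1 had spn6 or spo6 reach the filter. Both were tested there only through mutant groups where they were high, hrp3Δ among them, and had to differ. The 70% counts both, so it cannot by itself be read as an excess over the 35%. Other genes of the lists were not checked for this limit in any comparison. In hrp1Δhrp3Δ of B 4 of 12 were higher and 2 lower (50 against 50.5%), including spn6 (5.53), spn5 (2.55) and spo6 (1.60), and in hrp1Δ 1 was higher and 2 lower (25 against 10.4%). In prf1Δ of D 1 of 10 was higher with all libraries (10 against 4.82%), and without the 3 libraries 7 of 11 were higher and 1 lower (72.7 against 39.6%, medians 1.80 and -0.48), including the spore coat gene isp3, with 47.9 ± 2.53 CPM against 7.06 ± 1.47 CPM in WT (SD, n = 3 each).

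Recombination genes act beside rec8 on meiotic chromosomes. In libraries labelled hrp1-CT(hrp3) 6 of 14 were higher and 1 lower (50% called, against 56.6% of all coding genes), led by the strand-exchange protein dmc1 (4.36) and mde2 (2.64), with the axis protein rec10 at 65.8 ± 3.66 CPM against 19.3 ± 1.97 CPM in WT (SD, n = 3 each), and in libraries labelled hrp3-CT(hrp1) 1 was higher and none lower. In hrp1Δhrp3Δ of B 3 of 14 were higher and 1 lower (28.6 against 50.5%). In prf1Δ of D without the 3 libraries 6 of 16 were higher and 1 lower (43.8 against 39.6%), with meu13, which promotes pairing of homologues, at 44.5 ± 13.3 CPM against 4.51 ± 1.55 CPM in WT (SD, n = 3 each; 3.15, SE 0.37, adjusted p = 0.00017). With all libraries of D it was 2 of 13 higher and 1 lower. Of the cohesin genes 3 of 10 were higher in hrp1Δhrp3Δ of B (30 against 50.5%) and 1 higher and 4 lower in hrp1-CT(hrp3) (50 against 56.6%). Of 7 nuclear movement genes, partners of ssm4 and mcp5, 3 were higher and 2 lower in hrp1-CT(hrp3) (71.4 against 56.6%) and 1 was higher and 1 lower in hrp1Δhrp3Δ of B (28.6 against 50.5%). bqt1 was higher in hrp1-CT(hrp3) (1.05) and in prf1Δ without the 3 libraries (2.02), the dynein heavy chain dhc1 was higher in hrp1-CT(hrp3) (0.41) and hrp1Δhrp3Δ of B (0.72), and the dynein light chain dlc1 was lower in both (-0.595 and -0.24).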

How the data were processed

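RNA of 72 cultures was read by directional poly(A) sequencing. The authors quantified reads with Kallisto (version not given in the sources used here) against Ensembl transcripts of ASM294v2 and their reverse complements, and deposited estimated counts and TPM per entry, neither filtered nor pooled. A batch is what the labels call one.

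After rounding to integers, the estimated counts were fitted in edgeR 4.0.16 (R 4.3.3, limma 3.58.1) by the quasi-likelihood test, 1 fit for each of A batch 1, A batch 2, B, C and D, with TMM factors over all entries, filterByExpr (minimum count 10, total 15) and two-sided Benjamini-Hochberg adjusted p over all entries of the fit, called under 0.05. SE is the standard error implied by the p and its degrees of freedom. CPM is a library's estimated count divided by its total and scaled as usual. TPM, as deposited, served only to rank genes within libraries. The code was tested on simulated data. Alternatives were DESeq2 1.42.0, TMM on coding genes, 2 other filters, a replicate block, 2 groups alone and each library left out. Summing overlapping entries, and this with fewer libraries of D, were chosen after seeing the data. Whole entries were summed, so reads from any part of a non-coding entry outside the member counted too.

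The members and the gene lists were chosen with earlier results of these data known. Genes named are the 8 members, the coding gene most like each, and up to 4 called genes of a list per comparison by absolute log2 fold change. ste11 and mmi1 levels, and the levels of ste4, were added after their values were seen. The replicates are taken as separate cultures.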

Additional observations from a re-analysis of the deposited data

Results flagged for a closer look

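Antisense crs1 changed differently in hrp3Δ in the 2 experiments that held that strain. In B it had 1.04, 1.35 and 1.66 CPM in hrp3Δ (9, 11 and 12 counts), against 2.15, 2.51 and 3.26 CPM in WT (16, 23 and 29 counts). In batch 1 of A it had 1.38, 3.13 and 0 CPM in libraries labelled hrp3Δ (25, 9 and 0 counts), against 0.375, 0 and 0 CPM in WT (3, 0 and 0 counts). The change in B minus that in batch 1 of A was -3.59 on the log2 scale by edgeR's interaction test (SE 0.96, adjusted p = 0.029). It was no longer called without hrp3Δ replicate 2 of A (adjusted p = 0.081), WT replicate 3 of B (adjusted p = 0.071) or hrp3Δ replicate 1 of B (adjusted p = 0.062). Only 3 WT counts stand behind the value in A.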

How the results depend on the processing

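Of 33 calls of members, 22 against WT and 11 between mutants, 21 were kept under every alternative that tested them. The other 12 were lost under at least 1, and none changed sign. Among the 21, antisense spo5 in hrp3Δ of batch 1 of A had no test with the 2 groups alone. In 11 of the 33 no library of the lower group reached the filter, so the entry was tested only because another group was high. DESeq2 called the same 33. Replicate numbers did not pair the libraries: in 0 of 19 comparisons did all 3 same-numbered pairs correlate above 0.1, and r ran between -0.61 and 0.68. Under the replicate block the number of antisense members called was 1 in fft2Δ and 1 in fft3Δ of batch 1 of A (0 without it) and 0 in hrp1Δhrp3Δ of D (1 without it, antisense spo5 2.49, adjusted p = 0.069), and no other number of calls changed. Scaled on coding genes, 1 sense member was called in hrp1Δ of batch 1 (0 otherwise), 2 sense and 2 antisense in hrp1-CT(hrp3) and 2 sense and 4 antisense against hrp3-CT(hrp1) (1, 1, 1 and 2 otherwise), and 2 sense in prf1Δ. Without a filter there were 1 and 2 antisense calls in fft2Δ and hrp3Δ of batch 1, 2 sense and 2 antisense in hrp1-CT(hrp3), 2 sense against hrp3-CT(hrp1), 2 antisense in hrp1Δhrp3Δ of D and 2 sense in prf1Δ. At least 1 CPM in 3 libraries gave 1, 2, 2 and 2 in fft2Δ, hrp3Δ, hrp1Δhrp3Δ of D (antisense) and prf1Δ (sense). With the 2 groups alone there were 0 sense calls in fft3Δ and irc20Δ, 0 antisense in hrp3Δ of batch 1, hrp1Δhrp3Δ of D and hrp1Δhrp3Δprf1Δ, and 2 sense in prf1Δ. With overlapping entries summed there were 2 sense and 2 antisense calls in snf22Δ, 2 antisense in hrp1Δ of B, 3 antisense in hrp1-CT(hrp3) and 2 sense in prf1Δ, and antisense spo4 turned to -0.5934 in hrp3Δ against hrp1Δ of B from 0.33. D less the 3 libraries gave 4 sense and 2 antisense calls in prf1Δ and 1 sense in hrp1Δhrp3Δprf1Δ, and with entries summed as well 5 and 3 in prf1Δ, 1 and 2 in hrp1Δhrp3Δprf1Δ and 2 antisense in hrp1Δhrp3Δ. Outside the main fits and D less the 3 libraries, the share of all entries called was not recorded. The counts of calls under other settings, also with 1 library left out, therefore have no background beside them. The cause of these shifts was not tested.

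Leaving out 1 library at a time, the number of sense members called ran 0 to 1 in fft3Δ, hrp1Δ and irc20Δ and 1 to 2 in hrp3Δ of batch 1 of A, 0 to 1 in hrp1Δ, 0 to 2 in hrp3Δ and 0 to 2 in hrp1Δhrp3Δ of B, 0 to 1 in hrp1Δhrp3Δ and 1 to 3 in hrp3Δ against hrp1Δ, 1 to 2 in hrp1-CT(hrp3) against WT and against hrp3-CT(hrp1), and 0 to 2 in prf1Δ. Antisense calls ran 0 to 1 in hrp1Δ of batch 1 and of B, 1 to 3 in hrp3Δ of B and hrp1-CT(hrp3), 2 to 5 between the exchange strains, and 0 to 2, 0 to 1 and 0 to 1 in hrp1Δhrp3Δ, prf1Δ and hrp1Δhrp3Δprf1Δ of D. Members whose change differed between A and B numbered 0 to 1 for hrp1Δ and 0 to 2 for hrp3Δ. Depth limits most members: in libraries of batch 1 of A 3 counts were worth up to 6.38 CPM, above most members' WT levels. In data simulated on hrp3Δ against WT, 65% of 2-fold changes were recovered in batch 1 of A and 92% in B. Those changes were placed in genes drawn from all coding genes past the filter, most of them with more reads than the members. Recovery at the members' levels was not measured.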
